A study of Mus musculus with 12 samples.

Results

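The 35 genes described here make up much of the machinery that copies DNA in S phase of the cell cycle. They were chosen by name: a gene belonged to the set if its symbol stood in the gene column of the array files, with no measured value used by that rule, although the list of names was drawn up with earlier results of these data known. All 35 were found among the 34844 gene names on the array, and 34 of them were among the 26506 genes with enough signal to be tested. Ccne2, which encodes cyclin E2, was not tested, because its probe was well above background on only 2 of 12 arrays (wild-type HCC replicate 2 and wild-type liver replicate 2). It belongs to the cyclin E and E2F group below, which therefore has 5 tested genes of 6.

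The study compared transcript levels after deletion of survivin, the product of Birc5, in hepatocellular carcinoma (HCC) and in non-cancerous liver of mice. There were 4 groups of 3 single-colour Agilent arrays: survivin-deleted HCC, wild-type HCC, survivin-deleted liver and wild-type liver, with liver meaning non-cancerous tissue here. Every mouse is labelled male and of the strain 129/SV/B6, and had received diethylnitrosamine (DEN), a carcinogen activated in liver, at 50 mg/kg when 2 weeks old. All groups also shared irradiation with bone marrow transplantation 2 months before tissue was taken, and poly(IC), a synthetic RNA that mimics viral infection, given 8 months after DEN and 1 week before tissue was taken. The genotype labels are Mxcre+ for the survivin-deleted groups and Mxcre- for the wild-type groups. Mx-Cre is a recombinase whose promoter responds to interferon, so poly(IC) acts on both genotypes while recombination is limited to Mxcre+ cells. The promoter is active in hepatocytes and also in blood cells, but neither the deleted stretch of Birc5 nor the origin of the blood cells in these transplanted mice is given in the labels. Nor do they state that each array came from its own animal, so p-values measure only the spread between these samples.

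As background, replication starts when the proteins Cdc6 and Cdt1 load rings of Mcm2 to Mcm7 onto origins in G1 phase, and geminin (Gmnn) blocks Cdt1 afterwards. Mcm10, Cdc45 and the GINS complex turn the loaded ring into a running helicase, after which polymerases, the sliding clamp Pcna and its loader copy the strands. Most of these genes are switched on together at the end of G1 by the transcription factors E2f1 to E2f3 and switched off by E2f7 and E2f8, and in an adult liver at rest few hepatocytes are in S phase. Survivin itself acts later, in mitosis, as part of the chromosomal passenger complex.

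Promoter sequences were available for 29 of the 35 genes from RefSeq (assembly GRCm38.p6), as windows of 250 bases before to 50 bases after each transcript start. The set was searched on both strands for the E2F words TTTGGCGC, TTTCGCGC, TTTCCCGC and TTTGCCGC, for CCAAT, the word of the factor NF-Y, and for TTTGAA, the word of the cell-cycle homology region (CHR). An E2F word stood in 12 of the 29 genes (41.4%), against 704 of the 27025 genes in the table (2.6%). CCAAT stood in 18 of 29 (62.1%), against 41.1% of all genes, and the CHR word in 5 of 29 (17.2%), against 20.2%. These are matches of letters, not measured binding sites. The 6 promoters below are shown because these genes carry the results that follow: Rrm2, Chaf1a and E2f7 had 3 of the smallest unadjusted p-values in liver, Rfc3 and Pole2 the smallest on slide 2 in HCC, and Mcm6 holds the most E2F words of the set. Each runs 5′ to 3′ from 200 bases before to 20 bases after the start, on the strand of the gene, with E2F and CCAAT words in capitals (ATTGG is CCAAT on the other strand).
Mcm6 (GRCm38.p6, chr1:128359686-128359905, minus strand): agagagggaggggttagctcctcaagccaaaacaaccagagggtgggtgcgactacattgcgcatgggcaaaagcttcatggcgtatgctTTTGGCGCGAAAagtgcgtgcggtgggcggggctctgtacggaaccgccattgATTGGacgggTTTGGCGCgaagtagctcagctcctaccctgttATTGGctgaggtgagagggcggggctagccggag
Rfc3 (GRCm38.p6, chr5:151651189-151651408, minus strand): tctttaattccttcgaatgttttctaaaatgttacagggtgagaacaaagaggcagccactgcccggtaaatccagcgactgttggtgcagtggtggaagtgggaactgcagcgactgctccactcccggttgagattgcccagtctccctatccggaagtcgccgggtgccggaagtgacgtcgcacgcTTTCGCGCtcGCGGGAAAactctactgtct
Pole2 (GRCm38.p6, chr12:69228171-69228390, minus strand): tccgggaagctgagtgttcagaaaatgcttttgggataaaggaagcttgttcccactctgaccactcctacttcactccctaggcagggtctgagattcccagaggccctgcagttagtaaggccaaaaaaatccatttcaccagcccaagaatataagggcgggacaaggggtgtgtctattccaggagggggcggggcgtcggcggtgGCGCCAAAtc
E2f7 (GRCm38.p6, chr10:110745239-110745458, plus strand): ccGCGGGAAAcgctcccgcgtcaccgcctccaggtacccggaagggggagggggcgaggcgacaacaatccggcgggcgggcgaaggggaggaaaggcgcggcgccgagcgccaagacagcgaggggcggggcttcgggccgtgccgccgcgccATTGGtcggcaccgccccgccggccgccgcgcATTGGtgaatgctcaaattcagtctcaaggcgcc
Chaf1a (GRCm38.p6, chr17:56040216-56040435, plus strand): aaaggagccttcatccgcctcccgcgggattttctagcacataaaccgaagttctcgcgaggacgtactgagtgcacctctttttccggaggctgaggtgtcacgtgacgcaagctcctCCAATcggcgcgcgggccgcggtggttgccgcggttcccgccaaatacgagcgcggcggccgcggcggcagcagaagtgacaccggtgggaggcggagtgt
Rrm2 (GRCm38.p6, chr12:24708054-24708273, plus strand): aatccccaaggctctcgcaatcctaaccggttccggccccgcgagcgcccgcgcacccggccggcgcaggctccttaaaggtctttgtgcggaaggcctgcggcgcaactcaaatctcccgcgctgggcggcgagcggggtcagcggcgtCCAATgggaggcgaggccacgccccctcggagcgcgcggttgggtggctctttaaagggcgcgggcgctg

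In Mcm6 the first 2 E2F words, at -110 and -106 from the start, overlap on opposite strands, and the remaining one stands at -47 between the CCAAT words at -57 and -14. Rfc3 has E2F words at -10 and 1, around its start, and Pole2 has its E2F word at 11. E2f7, itself an E2F family gene, has its E2F word at -198, far from the start, with CCAAT words at -46 and -14. Chaf1a and Rrm2 hold none of the searched E2F words in this window and a single CCAAT word each, at -81 and -50. Other forms of E2F word were not searched for, so the search cannot show that these promoters lack an E2F site. Pole, Gins1, Gins2, Mcm4, Ccne2 and Gmnn were not looked at for promoter words.

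**Figure D1:**
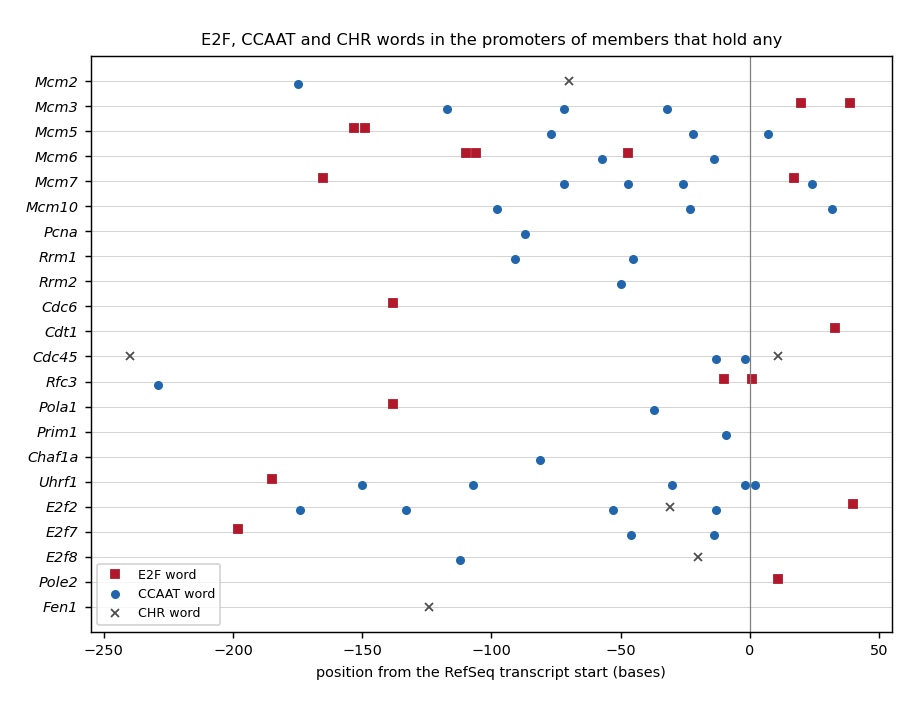
Positions of the searched promoter words in bases from the RefSeq transcript start (horizontal axis) for each gene of the set that holds any (vertical axis). Red squares are E2F words, blue circles CCAAT words and grey crosses CHR words on either strand. E2F words were found in 12 of the 29 genes searched, and the words of Mcm6, at -110, -106 and -47, are the most in any of them.

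Levels below are log2 signals relative to the 75th percentile of the same array, and differences are between such log2 levels. They are given in replicate order, so the first value of each group is from slide 1 and the others from slide 2. Slide 1 held replicate 1 of each group (4 arrays) and slide 2 replicates 2 and 3 (8 arrays), and the slides parted along the leading principal component, which held 53.2% of the variance. The 75th percentile of the signal was 1131 to 1766 on slide 1 and 3343 to 3906 on slide 2. On wild-type liver replicate 1, 49.0% of the spots were well above background, and on the other arrays 69.2% to 83.4%. With 3 arrays per group, array number limits precision throughout. Alb, the serum albumin gene that marks hepatocytes, had levels of 6.06 to 7.13 on the 12 arrays.

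Arrays labelled survivin-deleted liver replicate 1 and wild-type HCC replicate 1 are in doubt, since the deposited value table holds each under the name of the other (r = 0.964 and 0.97 with the scanner file of the same name, 1.00 with that of the other). The scanner assignment was kept, and results are also given with the 2 arrays exchanged and left out. Despite the male label of all mice, XIST, the RNA of the inactive X chromosome, separated the genotypes on slide 2, at levels of -6.33 to -5.96 in survivin-deleted and -2.13 to -1.31 in wild-type arrays. On slide 1 its levels were -4.89 in survivin-deleted HCC and -2.32 in the doubtful deleted liver, against -4.12 in the doubtful wild-type tumour and -1.77 in wild-type liver. With the 2 arrays exchanged, slide 1 levels of XIST would be -4.89 and -4.12 in survivin-deleted and -2.32 and -1.77 in wild-type arrays. Which assignment is right was not tested. Birc5 (mm9 chromosome 11, 117716978 to 117717037) had levels of 0.06, 0.17 and -0.08 in survivin-deleted HCC, against 0.80, 0.82 and 1.76 in wild-type HCC. In survivin-deleted liver it had levels of 2.42, -0.10 and -1.07, against 2.85, 0.51 and 0.76 in wild-type liver. The HCC groups did not overlap and the liver groups did, through the array in doubt. The log2 difference was -1.08 in HCC (exact permutation test, two-sided, p = 0.1, n = 3 per group, the smallest p that 3 against 3 arrays allow). With the 2 arrays exchanged the HCC difference was -1.62 (exact permutation test, p = 0.1). In liver it was -0.96 (exact permutation test, p = 0.5, n = 3 per group), and -1.50 with the 2 arrays exchanged (exact p = 0.3). These permutation tests took no account of slide. Within slides 1 and 2, Birc5 as filed differed by -0.74 and -1.25 in HCC and by -0.43 and -1.22 in liver.

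Replication genes were lower in survivin-deleted than in wild-type liver in 30 of 34 cases, by a median log2 difference of -0.25, while 44.9% of all 26506 genes were below 0 and their median was 0.05. The 4 genes with a difference above 0 were E2f7, E2f8, Fen1 and E2f1. No gene of the set passed an adjusted p of 0.05 by limma (smallest 0.416), nor did any of the 26506 genes (0%), of which 3137 (11.8%) had an unadjusted p under 0.05. At that unadjusted level 6 of the 34 were lower, against 3.46% of all genes lower, and 1 was higher, against 8.37% of all genes higher. The 6 were Rrm2, Chaf1a, Rfc4, Tk1, Chaf1b and Prim1, and the other was E2f7. The shares of all genes depended on the filter. Of the 18785 genes well above background on all arrays, 10569 were below 0, and their median was -0.05. At an unadjusted p under 0.05 (limma) 1051 of these were lower and 850 higher. In that fit 28 of 31 replication genes were below 0 (median -0.28), with 8 lower and 0 higher at that level. A difference in bulk tissue cannot tell fewer cells of a type from less RNA per cell. In both tissues the deletion differences also cannot be told apart from a difference between the genotypes that goes with XIST, such as sex. The part of sex was not tested.

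The genes that supply nucleotides for replication included the lowest unadjusted p of the set. Rrm2, the regulated small subunit of ribonucleotide reductase, had levels of 0.61, -0.54 and -0.33 in survivin-deleted liver, against 1.20, 0.54 and 0.62 in wild-type liver. On slide 2 both deleted livers were below 0 and both wild-type livers above 0.5, while the deleted array of slide 1, the one in doubt, lay among the wild-type values. Its means were -0.08 ± 0.61 and 0.78 ± 0.36 (SD, n = 3 each), a log2 difference of -0.87 (SE 0.23), or 1.82-fold lower (limma unadjusted p = 0.0037, adjusted p = 0.416). Without the 2 arrays in doubt the difference was -1.07 (limma unadjusted p = 0.000291). Tk1, thymidine kinase of the salvage pathway, had levels of 2.19, 1.23 and 1.76 in survivin-deleted liver, against 3.41, 2.12 and 1.81 in wild-type liver. The arrays overlapped only through the slide 1 array in doubt, and the log2 difference was -0.72 (SE 0.28, limma unadjusted p = 0.028, adjusted p = 0.416). For Tk1 the unadjusted p was no longer under 0.05 without the 2 arrays in doubt (-0.64, limma unadjusted p = 0.109), with them exchanged (-0.58, limma unadjusted p = 0.0709) or within slide 2 (-0.47, limma unadjusted p = 0.176). Rrm1, the large reductase subunit, differed by -0.39, Tyms, which makes thymidylate, by -0.18 and Dut, which removes dUTP, by -0.12. With the probes used, all 5 nucleotide genes were thus below 0, with a median difference of -0.39. Other Tk1 probes with enough signal disagreed in direction, at 0.43 and -0.92.

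Chromatin assembly factor 1 places histones on new DNA behind the fork, and both of its measured subunits were lower. Chaf1a, the large subunit, had levels of -1.48, -2.82 and -2.97 in survivin-deleted liver, against -0.78, -2.69 and -2.00 in wild-type liver. Slide 1 arrays were the highest of each group, and on slide 2 the groups did not overlap. The log2 difference was -0.60 (SE 0.23, limma unadjusted p = 0.0253, adjusted p = 0.416). Chaf1b, the middle subunit, had levels of 0.33, -0.09 and 0.03 in survivin-deleted liver, against 0.43, 0.76 and 0.56 in wild-type liver, with no overlap. Its means were 0.09 ± 0.21 and 0.59 ± 0.17 (SD, n = 3 each), a log2 difference of -0.50 (SE 0.20, limma unadjusted p = 0.0319, adjusted p = 0.416). Uhrf1, which brings DNA methylation to new strands, differed by -0.11 (limma unadjusted p = 0.583).

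Among the polymerases, the clamp and its loader, 7 of 8 were below 0, with a median log2 difference of -0.35. Rfc4, a subunit of the clamp loader, had levels of 1.39, 0.26 and 0.43 in survivin-deleted liver, against 1.97, 0.83 and 0.91 in wild-type liver. Both slide 2 deleted arrays were below every wild-type array, and the log2 difference was -0.54 (SE 0.21, limma unadjusted p = 0.0278, adjusted p = 0.416). Prim1, the catalytic primase subunit, had levels of -0.23, -0.42 and -0.78 in survivin-deleted liver, against -0.01, 0.34 and 0.28 in wild-type liver. Those groups did not overlap (log2 difference -0.68, SE 0.30, limma unadjusted p = 0.0479, adjusted p = 0.42). Rfc3, another loader subunit, had levels of 0.23, -1.05 and -1.01 in survivin-deleted liver, against -0.42, 0.02 and -0.15 in wild-type liver. Here the slides disagreed: the log2 difference was 0.65 on slide 1 and -0.97 on slide 2 (limma on slide 2 alone, unadjusted p = 0.000255, adjusted p = 0.223). Pole and Pole2, subunits of the leading-strand polymerase, differed by -0.46 and -0.24, Pcna by -0.25, Pola1, the catalytic subunit of the polymerase that extends primers, by -0.28, and Fen1, which trims flaps on the lagging strand, by 0.07.

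All 9 helicase-loading genes were below 0, with a median log2 difference of -0.24. Mcm6 had levels of 1.85, -0.65 and -0.50 in survivin-deleted liver, against 2.19, 0.12 and 0.60 in wild-type liver. Slide 2 values of the deleted livers were the only ones below 0 (log2 difference -0.74, SE 0.33, limma unadjusted p = 0.0522). Mcm5 was lower on every deleted array than on any wild-type array, at -1.07, -1.30 and -1.34 against -0.77, -0.90 and -0.69 (log2 difference -0.45, limma unadjusted p = 0.0893). Cdc6 differed by -0.54 and Mcm2, Mcm3, Mcm4, Mcm7, Cdt1 and Gmnn by -0.18 to -0.24. The 4 genes of helicase activation had a median of -0.48. Mcm10 differed by -1.01 but had an SE of 0.72, Gins2 by -0.74 (SE 0.45), Gins1 by -0.22 and Cdc45 by -0.14.

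The cyclin E and E2F genes were mixed in direction, with E2f7 and E2f8 higher and Ccne1 lower. E2f7, a repressor of E2F targets, had levels of -1.09, -0.93 and -1.29 in survivin-deleted liver, against -2.43, -1.56 and -1.55 in wild-type liver. Every deleted array was above every wild-type array, although wild-type liver replicate 1 was not well above background for this probe. Its means were -1.10 ± 0.18 and -1.85 ± 0.51 (SD, n = 3 each), a log2 difference of 0.74 (SE 0.25), or 1.67-fold higher (limma unadjusted p = 0.0139, adjusted p = 0.416). Within slide 2 the difference was 0.44 (limma unadjusted p = 0.0894), and without the 2 arrays in doubt 0.45 (limma unadjusted p = 0.0717). E2f8, the closest relative of E2f7, differed by 0.51 overall and by 0.08 on slide 2. The activator E2f1 differed by 0.00 and E2f2 by -0.05, each with an SE of at least 0.24, and Ccne1, which encodes cyclin E1, by -0.42 (SE 0.61). Ccne2, well above background on 1 of these 6 arrays, had levels of -8.05 to -6.37 in survivin-deleted liver and -5.95 to -4.95 in wild-type liver.

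With slide 2 alone the median log2 difference in liver was -0.46, and 12 of 34 genes were lower at an unadjusted p under 0.05 (limma), against 6.08% of all genes, with none higher, against 5.54%. The 12 were Mcm5, Mcm6, Cdc6, Cdt1, Gins2, Rfc3, Rfc4, Prim1, Pole, Pole2, Rrm2 and Chaf1b, with Rrm2 and Rfc3 at the smallest adjusted p (0.223), while 1 of all genes (0.00377%), XIST, passed the adjusted threshold. Groups did not overlap on slide 2 for 26 of 34 genes in the lower direction, against 23.7% of all genes, and for 1, E2f7, in the higher direction, against 25.9%. With all 3 arrays, 3 genes (Mcm5, Prim1 and Chaf1b) were lower without overlap, against 3.24% of all genes, and E2f7 was higher, against 6.34%. On slide 1, which holds 1 array of each group, the mean level of the 34 genes was -0.02 in survivin-deleted liver and -0.02 in wild-type liver. On slide 2 the mean levels were -0.68 and -0.65 in survivin-deleted liver, against -0.27 and -0.11 in wild-type liver. With the 2 arrays in doubt exchanged, 14 genes were lower at an unadjusted p under 0.05 (3.92% of all genes) and 1 higher (5.32%), and the median was -0.43. Without them 12 were lower (4.01% of all genes) and none higher (3.61%), and the median was -0.40. Leaving out each array in turn left 27 to 31 of the 34 genes below 0. The number at an unadjusted p under 0.05 in either direction, 7 with all arrays, depended more on single arrays. It was 2 without survivin-deleted liver replicate 2, 3 without its replicate 3, 3 without wild-type liver replicate 1, and 12 without survivin-deleted liver replicate 1. Of all 26506 genes, 3007, 2495, 1384 and 2084 were at that level in those fits, in the same order, and 3137 with all arrays.

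Markers of several cell types stood on the same side in liver, with no gene past the adjusted threshold. Of 12 hepatocyte markers 11 were below 0, at a median log2 difference of -0.30, and the mean level of the list was 5.26 to 5.37 in survivin-deleted liver and 5.50 to 5.77 in wild-type liver. Of 9 measured erythroid precursor markers 7 were below 0, at a median of -0.73, with mean levels of -0.13 to 0.85 in survivin-deleted liver and 0.72 to 1.25 in wild-type liver. Of 12 neutrophil and granulocyte precursor markers 11 were below 0, at a median of -0.26, with mean levels of 1.19 to 2.15 in survivin-deleted liver and 1.65 to 2.46 in wild-type liver. All 10 measured macrophage markers were below 0, at a median of -0.25 (mean levels 1.43 to 1.94 in survivin-deleted liver and 1.69 to 2.62 in wild-type liver). The T and NK cell list had a median of 0.20 and the pre-B and B cell list of 0.30. Bile duct markers (7 measured) were also on the other side, with mean levels of -1.1 to -0.87 in survivin-deleted liver and -1.27 to -1.13 in wild-type liver. The part of these cell types in the replication result was not tested.

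**Figure D2:**
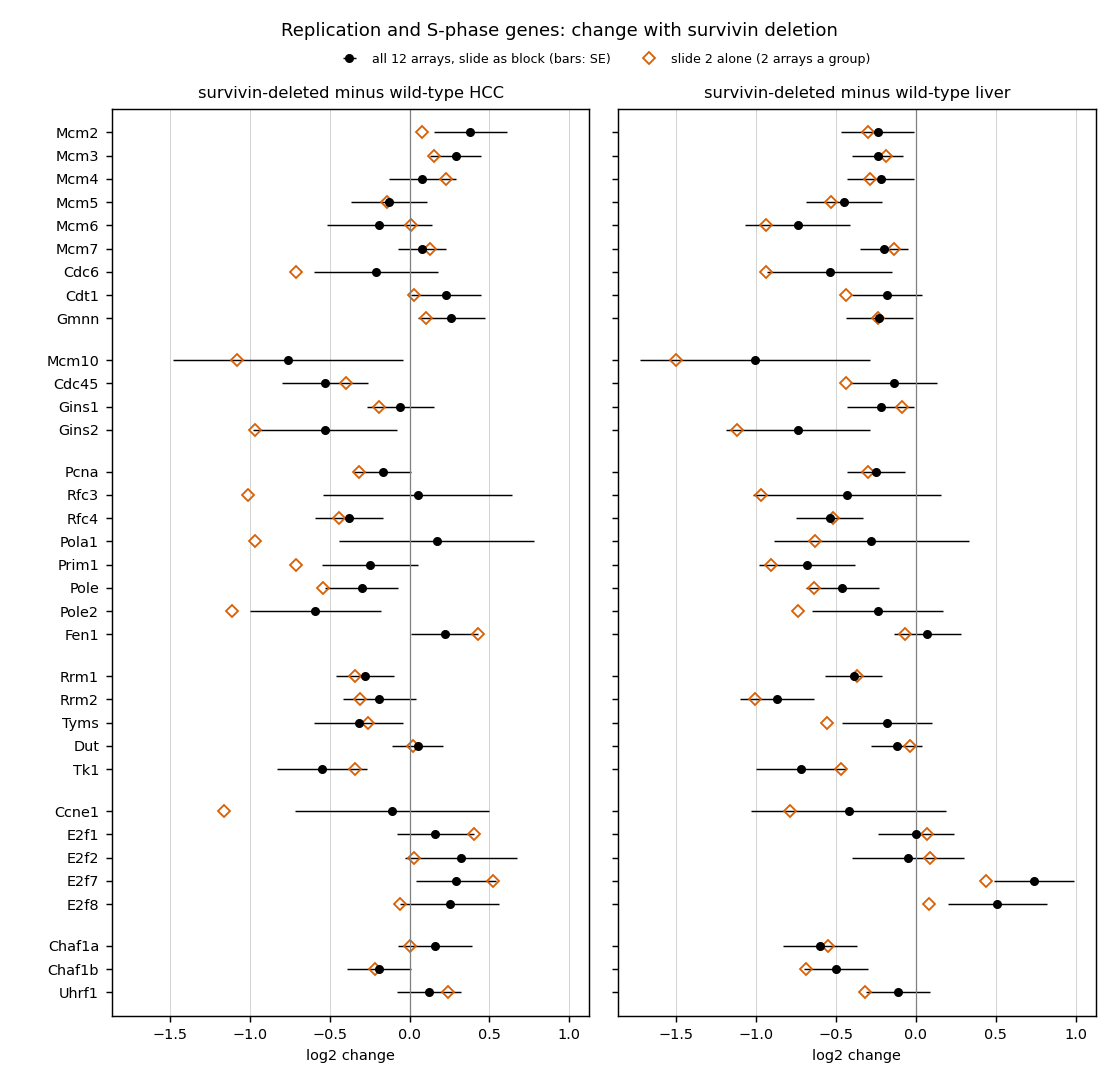
Log2 difference between survivin-deleted and wild-type tissue for the 34 tested genes, in HCC (left) and in liver (right), with genes grouped by role down the page. Black points are the fit of 12 arrays with slide as a block and bars are 1 standard error (SE), and orange diamonds are slide 2 alone. In liver 30 of 34 points lie below 0 and E2f7 lies at 0.74, while in HCC 18 of 34 lie below 0.

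In HCC the same genes were split, with 16 above and 18 below 0 in survivin-deleted against wild-type tumours and a median log2 difference of -0.08 (all genes -0.02, with 52.6% below 0). Helicase-loading genes were mostly above 0 (6 of 9, median 0.08), helicase-activation genes were below 0 in 4 of 4 cases (median -0.53), and nucleotide genes in 4 of 5 (median -0.28). The lowest p-values belonged to Cdc45, Tk1, Mcm3, Rfc4, Mcm2 and Rrm1. No gene of the set passed the adjusted threshold by limma (smallest adjusted p = 0.654), nor did any of the 26506 genes (0%). None of the 34 had an unadjusted p under 0.05, against 7.90% of all genes (4.45% lower and 3.46% higher).

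Cdc45, part of the running helicase, had levels of -2.55, -4.10 and -3.64 in survivin-deleted HCC, against -1.77, -3.50 and -3.45 in wild-type HCC. Each slide showed a lower level in the deleted tumours, but the slides lay further apart than the groups (log2 difference -0.53, SE 0.27, limma unadjusted p = 0.0765, adjusted p = 0.654). Tk1 had levels of 1.65, 0.87 and 1.62 in survivin-deleted HCC, against 2.62, 1.68 and 1.49 in wild-type HCC. Its log2 difference was -0.55 (SE 0.28, limma unadjusted p = 0.0772), and on slide 2 the groups overlapped. Rfc4 had levels of 1.05, 0.17 and 0.71 in survivin-deleted HCC, against 1.29, 0.87 and 0.89 in wild-type HCC. It was lower on both slides (log2 difference -0.38, SE 0.21, limma unadjusted p = 0.104), as was Rrm1, at -0.14, 0.87 and 0.90 in survivin-deleted HCC, against 0.02, 1.09 and 1.35 in wild-type HCC (log2 difference -0.28, limma unadjusted p = 0.149).

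Mcm2 and Mcm3, subunits of the Mcm ring, were on the other side. Mcm3 had levels of 1.06, 0.33 and 0.21 in survivin-deleted HCC, against 0.49, 0.20 and 0.03 in wild-type HCC (log2 difference 0.29, SE 0.16, limma unadjusted p = 0.0987). Mcm2 had levels of 0.63, 0.53 and 0.46 in survivin-deleted HCC, against -0.36, 0.31 and 0.53 in wild-type HCC (log2 difference 0.38, SE 0.23, limma unadjusted p = 0.132). The lowest value of Mcm2 was from the wild-type HCC array in doubt, and on slide 2 alone the difference was 0.08. Gmnn, Cdt1, Mcm4 and Mcm7 differed by 0.08 to 0.26 and Mcm5, Mcm6 and Cdc6 by -0.13 to -0.21.

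Several polymerase and loader genes differed in sign between the slides, and the slide 1 array of wild-type HCC is the one in doubt. Rfc3 had levels of 0.23, -0.89 and -0.81 in survivin-deleted HCC, against -1.95, 0.21 and 0.10 in wild-type HCC. The difference was 2.17 on slide 1 and -1.01 on slide 2 (limma on slide 2 alone, unadjusted p = 0.000201, adjusted p = 0.0817), and 0.05 over all arrays. Pola1 had levels of -1.25, -1.81 and -0.58 in survivin-deleted HCC, against -3.69, -0.33 and -0.12 in wild-type HCC, with differences of 2.44 on slide 1 and -0.97 on slide 2. Pole2 had levels of -2.88, -2.73 and -2.80 in survivin-deleted HCC, against -3.35, -1.56 and -1.74 in wild-type HCC. Its difference was 0.47 on slide 1 and -1.11 on slide 2 (limma on slide 2 alone, unadjusted p = 0.000632, adjusted p = 0.0999). Ccne1 ran the same way, at 1.58, -0.67 and 0.63 in survivin-deleted HCC, against -0.40, 1.29 and 0.97 in wild-type HCC. For all 4 genes the wild-type HCC array of slide 1 had the lowest level of its group.

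Over slide 2 alone the median log2 difference in HCC was -0.20, and 7 of 34 genes were lower at an unadjusted p under 0.05 (limma), against 8.85% of all genes, with none higher, against 10.2%. Of all genes 1 (0.00377%), again XIST, passed the adjusted threshold. The 7 were Cdc6, Gins2, Rfc3, Prim1, Pole, Pole2 and Ccne1. The groups did not overlap on slide 2 for 13 genes in the lower direction (21.9% of all genes) and for 7 in the higher direction (27.8% of all genes), and with all 3 arrays for none in either direction (2.76% and 2.89% of all genes). The 7 higher on slide 2 were Mcm3, Mcm4, Mcm7, Uhrf1, E2f1, E2f7 and Fen1. Mean levels of the 34 genes on slide 2 were -0.62 and -0.38 in survivin-deleted HCC, against -0.26 and -0.22 in wild-type HCC. On slide 1 they were -0.13 and, on the wild-type array in doubt, -0.43. With the 2 arrays in doubt exchanged, 3 genes were lower at an unadjusted p under 0.05 (5.33% of all genes) and none higher (3.54%), and the median was -0.23. Without them 6 were lower (5.81%) and 1, E2f7, was higher (6.27%), with a median of -0.24, and 2 of all genes (0.00755%) passed the adjusted threshold. Leaving out wild-type HCC replicate 1 alone gave a median of -0.32 and 6 genes at an unadjusted p under 0.05, against 2576 of all 26506 genes. Leaving out survivin-deleted HCC replicate 3 or 1 gave 3 and 2 such genes, against 2646 and 2603 of all 26506 genes. Leaving out wild-type HCC replicate 3 gave a median of 0.05.

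Beside these values, T and NK cell markers were above 0 in 11 of 13 cases in survivin-deleted HCC, at a median log2 difference of 1.09, and 6 of them had an unadjusted p under 0.05 (limma), against 3.46% of all genes. The mean level of that list was -0.80 to 0.29 in survivin-deleted HCC and -1.96 to -0.93 in wild-type HCC. Macrophage markers had a median of 0.41 (7 of 10 above 0, mean levels 1.18 to 2.21 in survivin-deleted HCC and 0.69 to 2.05 in wild-type HCC) and hepatocyte markers of -0.09 (mean levels 5.14 to 5.47 in survivin-deleted HCC and 5.28 to 5.65 in wild-type HCC). Erythroid precursor markers had a median of -0.01. Their part in the replication values was not tested.

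**Figure D3:**
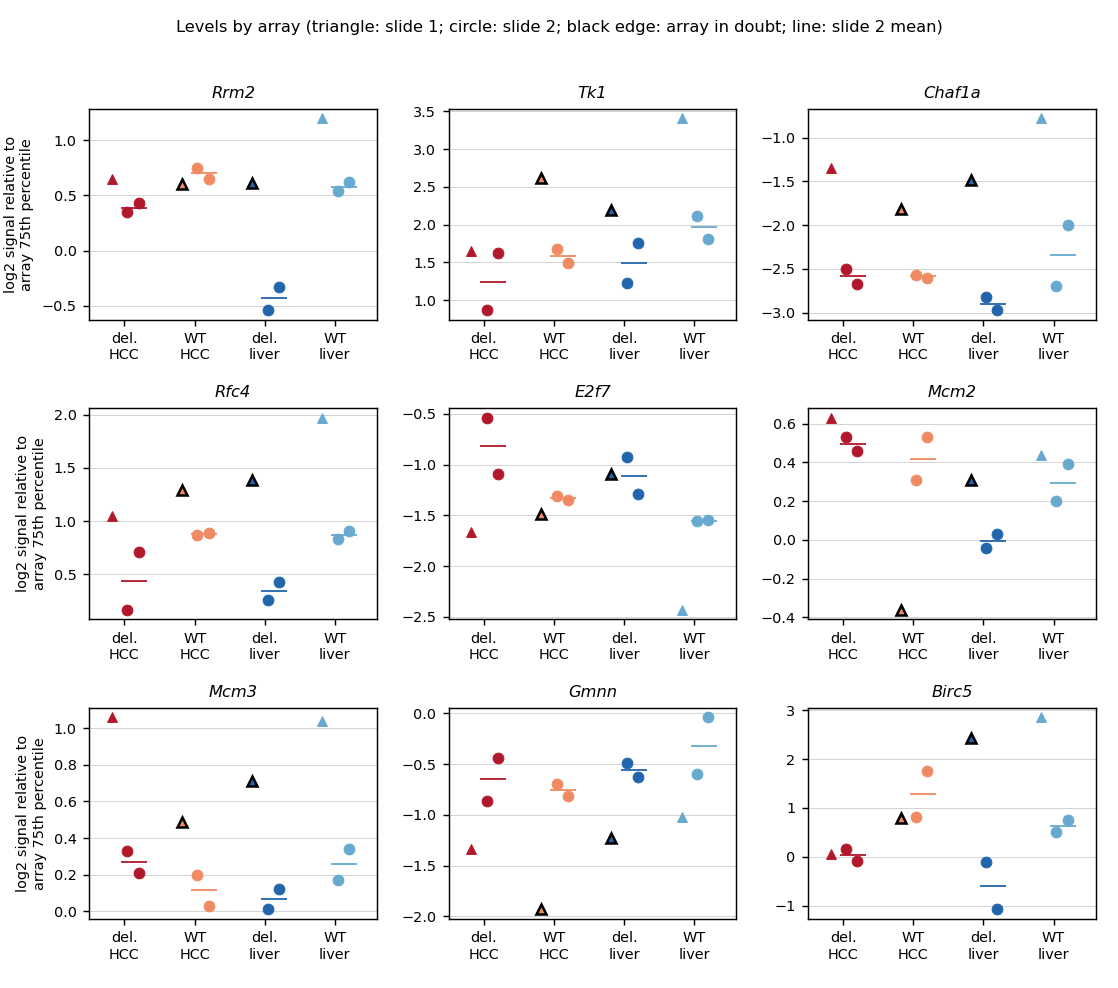
Log2 signal relative to the array's 75th percentile (vertical axis) for 8 genes of the set and Birc5 in survivin-deleted HCC, wild-type HCC, survivin-deleted liver and wild-type liver. Triangles are slide 1 arrays, circles slide 2 arrays, black edges the 2 arrays in doubt, and lines the slide 2 mean. Rrm2 was -0.54 and -0.33 in the slide 2 survivin-deleted livers and at or above 0.35 on all other arrays.

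Whether the deletion difference depended on the tissue was tested directly, as the difference in HCC minus the difference in liver. For 29 of 34 genes this tissue difference was above 0, with a median of 0.27 on the log2 scale, while 56.4% of all genes were below 0 and their median was -0.06. Of the 18785 genes well above background on all arrays, 8913 were below 0 and 9872 above (median 0.02). In that fit 29 of 31 replication genes were above 0 (median 0.3). No gene of the set passed by limma (smallest adjusted p = 0.912), nor did any of the 26506 genes (0%), of which 3.29% had an unadjusted p under 0.05. Chaf1a and Mcm3 had an unadjusted p under 0.05, against 0.849% of all genes with such a p and a positive difference, and none of the set had a negative one, against 2.44%. This comparison uses the same arrays as the others, so it is no separate evidence of them.

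Chaf1a differed by 0.16 with deletion in HCC and by -0.60 in liver, a tissue difference of 0.76 (SE 0.32, limma unadjusted p = 0.0409, adjusted p = 0.912). Mcm3 differed by 0.29 in HCC and by -0.24 in liver, a tissue difference of 0.53 (SE 0.23, limma unadjusted p = 0.042, adjusted p = 0.912), from liver levels of 0.71, 0.01 and 0.12 in survivin-deleted and 1.04, 0.17 and 0.34 in wild-type arrays. Within slide 2 these differences were 0.55 and 0.34, with limma unadjusted p = 0.15 and 0.128. With the replicate number as the block in place of slide, and with no block, 0 of the 34 genes had an unadjusted p under 0.05 for the tissue difference. Of all 26506 genes, 803 and 149 had such a p in these fits. Rrm2 had a tissue difference of 0.68 (SE 0.32, limma unadjusted p = 0.0634), from a deletion difference of -0.19 in HCC and -0.87 in liver. It was 0.70 on slide 2 alone (limma unadjusted p = 0.00888, adjusted p = 0.999). Mcm2, Gmnn and Mcm7 followed, at 0.62, 0.50 and 0.29 (limma unadjusted p = 0.0877, 0.123 and 0.215). Mcm7 had levels of 2.20, 1.85 and 1.90 in survivin-deleted HCC, against 2.22, 1.78 and 1.70 in wild-type HCC. In survivin-deleted liver it had levels of 2.23, 1.70 and 1.57, against 2.56, 1.80 and 1.76 in wild-type liver, so the groups overlapped in both tissues. By role, all 9 helicase-loading genes and all 3 chromatin genes were above 0, with medians of 0.41 and 0.31, and the E2F and cyclin E genes were split 3 to 2. With slide 2 arrays only, 26 of 34 were above 0, the median was 0.22, and Rrm2, Mcm6 and Uhrf1 had an unadjusted p under 0.05 (limma), against 2.17% of all genes in that direction, with none negative, against 1.56%. The number of genes below 0, 5 with all arrays, was 3 to 13 when each array was left out in turn, the highest and the lowest median (0.15) being without wild-type HCC replicate 1. It was 8 without survivin-deleted HCC replicate 1 or 3 or survivin-deleted liver replicate 2, and 3 without survivin-deleted liver replicate 1.

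Macrophage, erythroid precursor and neutrophil lists had tissue differences in the same direction, at medians of 0.69 (10 of 10 above 0), 0.72 (8 of 9) and 0.39 (11 of 12), and hepatocyte markers of 0.24 (8 of 12). By mean level the bile duct list ran the other way, at -1.05 in survivin-deleted and -0.91 in wild-type HCC, and -0.96 and -1.2 in liver. So did the pre-B and B cell list, at -2.93 and -3.08 in HCC and -2.61 and -2.98 in liver. The part of these cell types in the values of the replication genes was not tested.

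HCC was next set against liver within each genotype, which shows how the set stood in the tumours. In survivin-deleted tissue 21 of 34 genes were above 0 in HCC, at a median log2 difference of 0.12 (all genes -0.04, with 55.8% below 0). In wild-type tissue 4 of 34 were above 0, at a median of -0.18 (all genes 0.04, with 44.6% below 0), and those were Pole2, E2f7, Cdc45 and Tyms. Of the 18785 genes well above background on all arrays, 9942 were below 0 in wild-type tissue (median -0.02). In that fit 30 of 31 replication genes were below 0 (median -0.19). No gene passed the adjusted threshold by limma in either genotype (smallest adjusted p in the set 0.903 with deletion and 0.751 in wild type), nor did any of the 26506 genes (0% in both), of which 4.40% with deletion and 6.09% in wild type had an unadjusted p under 0.05. Both comparisons share arrays with the deletion comparisons above.

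In survivin-deleted tissue Rrm2 was the only gene of the set with an unadjusted p under 0.05, against 1.76% of all genes higher and 2.64% lower at that level. Its levels were 0.65, 0.35 and 0.43 in survivin-deleted HCC, against 0.61, -0.54 and -0.33 in survivin-deleted liver (log2 difference 0.56, SE 0.23, or 1.48-fold higher, limma unadjusted p = 0.0346, adjusted p = 0.903). Every tumour was above every liver except for the comparison with the slide 1 liver array in doubt, which lay above 2 of the tumours. Mcm2 had levels of 0.63, 0.53 and 0.46 in survivin-deleted HCC, against 0.31, -0.04 and 0.03 in survivin-deleted liver, with no overlap (log2 difference 0.44, SE 0.23, limma unadjusted p = 0.0894). It was the 1 gene of 34 without overlap over all 3 arrays in the higher direction, against 2.26% of all genes, and none was so in the lower direction, against 2.28%. Mcm3 differed by 0.25 (limma unadjusted p = 0.147), with levels of 1.06, 0.33 and 0.21 in survivin-deleted HCC, against 0.71, 0.01 and 0.12 in survivin-deleted liver. Tk1 differed by -0.35, E2f8 by -0.36 and Pole2 by 0.47, each with an unadjusted p of at least 0.241 by limma. E2f8 had levels of 0.57, -0.45 and -0.19 in survivin-deleted HCC, against 1.13, -0.09 and -0.03 in survivin-deleted liver, lower in HCC on both slides with overlap between them.

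On slide 2 alone, survivin-deleted HCC was higher than survivin-deleted liver for 25 of 34 genes (median 0.20), without overlap for 15 (22.5% of all genes) and with an unadjusted p under 0.05 for 5 (limma, 5.29% of all genes), with none lower at that level (4.29%). The 5 were Rrm2, Mcm2, Mcm5, Mcm6 and Uhrf1, with differences of 0.82, 0.50, 0.52, 0.79 and 0.46, and 1 gene, E2f8, was lower without overlap (18.2% of all genes). On slide 1 Mcm5, Mcm6 and Uhrf1 had the opposite sign, at -0.42, -1.02 and -0.40, where the liver array is the one in doubt. With the 2 arrays exchanged 25 of 34 were above 0, at a median of 0.17, and without them 24, at a median of 0.27. Without survivin-deleted liver replicate 3 alone 17 of 34 were above 0, at a median of -0.02, and without its replicate 2 also 17. Alb had levels of 6.41, 7.09 and 7.11 in survivin-deleted HCC, against 6.06, 6.38 and 6.27 in survivin-deleted liver, with no overlap. The whole hepatocyte list was above 0 in 7 of 12 cases (median 0.16, and -0.05 on slide 2), with mean levels of 5.14 to 5.47 in survivin-deleted HCC and 5.26 to 5.37 in survivin-deleted liver. T and NK cell markers were above 0 in 12 of 13 cases (median 0.33, mean levels -0.80 to 0.29 in survivin-deleted HCC and -1.38 to 0.39 in survivin-deleted liver). Erythroid precursor markers were above 0 in 7 of 9 cases (median 0.22, mean levels 0.24 to 0.91 in survivin-deleted HCC and -0.13 to 0.85 in survivin-deleted liver). Their part in these values was not tested.

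In wild-type tissue Gmnn, whose product blocks a new round of helicase loading, had levels of -1.93, -0.70 and -0.81 in HCC, against -1.02, -0.60 and -0.04 in liver. It was lower in HCC on both slides (log2 difference -0.59, SE 0.21, or 1.51-fold lower, limma unadjusted p = 0.018, adjusted p = 0.751) and was the only gene of the set under an unadjusted 0.05, against 2.43% of all genes lower and 3.66% higher. With the 2 arrays in doubt exchanged Gmnn differed by -0.36 (limma unadjusted p = 0.155), and without them by -0.43 (limma unadjusted p = 0.0963), so it was no longer under 0.05. Mcm4 had levels of 0.63, -0.08 and -0.39 in wild-type HCC, against 1.24, -0.02 and 0.35 in wild-type liver (log2 difference -0.47, SE 0.21, limma unadjusted p = 0.0501). Chaf1a had levels of -1.82, -2.57 and -2.60 in wild-type HCC, against -0.78, -2.69 and -2.00 in wild-type liver (log2 difference -0.50, SE 0.23, limma unadjusted p = 0.0516). These 3 genes were lowest relative to liver on slide 1, where the tumour array is in doubt, and only Gmnn and Mcm4 were free of overlap on slide 2. Tk1 differed by -0.52 (limma unadjusted p = 0.0946).

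Pole2 and E2f7 were above 0 in wild-type HCC. Pole2 had levels of -3.35, -1.56 and -1.74 in wild-type HCC, against -4.74, -2.12 and -2.24 in wild-type liver (log2 difference 0.82, SE 0.41, limma unadjusted p = 0.0762), and wild-type liver replicate 1 was not well above background. With the probe used, E2f7 had levels of -1.49, -1.31 and -1.35 in wild-type HCC, against -2.43, -1.56 and -1.55 in wild-type liver, without overlap (log2 difference 0.46, SE 0.25, limma unadjusted p = 0.094, and 4.69% of all genes separated in that direction, while none of the set and 2.49% of all genes did so in the lower one). The other E2f7 probe with enough signal differed by -0.28 in this comparison, opposite in direction. On slide 2 alone 14 of 34 genes were above 0 at a median of -0.06, 5 were higher and 6 lower without overlap (22.0% and 21.7% of all genes), and Pole2 had the single unadjusted p under 0.05 (higher, 3.78% of all genes, with none of the set and 3.88% of all genes lower). The count of genes below 0 in wild-type HCC rested on replicate 1: it was 30 of 34 with all arrays, 19 without that array, and 20 with the 2 arrays in doubt exchanged (median -0.09) or left out (median -0.08). Macrophage markers were below 0 in wild-type HCC in 10 of 10 cases (median -0.61) and neutrophil markers in 12 of 12 (median -0.82), with mean levels of 0.69 to 2.05 and 0.25 to 2.29 in wild-type HCC and 1.69 to 2.62 and 1.65 to 2.46 in wild-type liver. Their part was not tested.

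**Figure D4:**
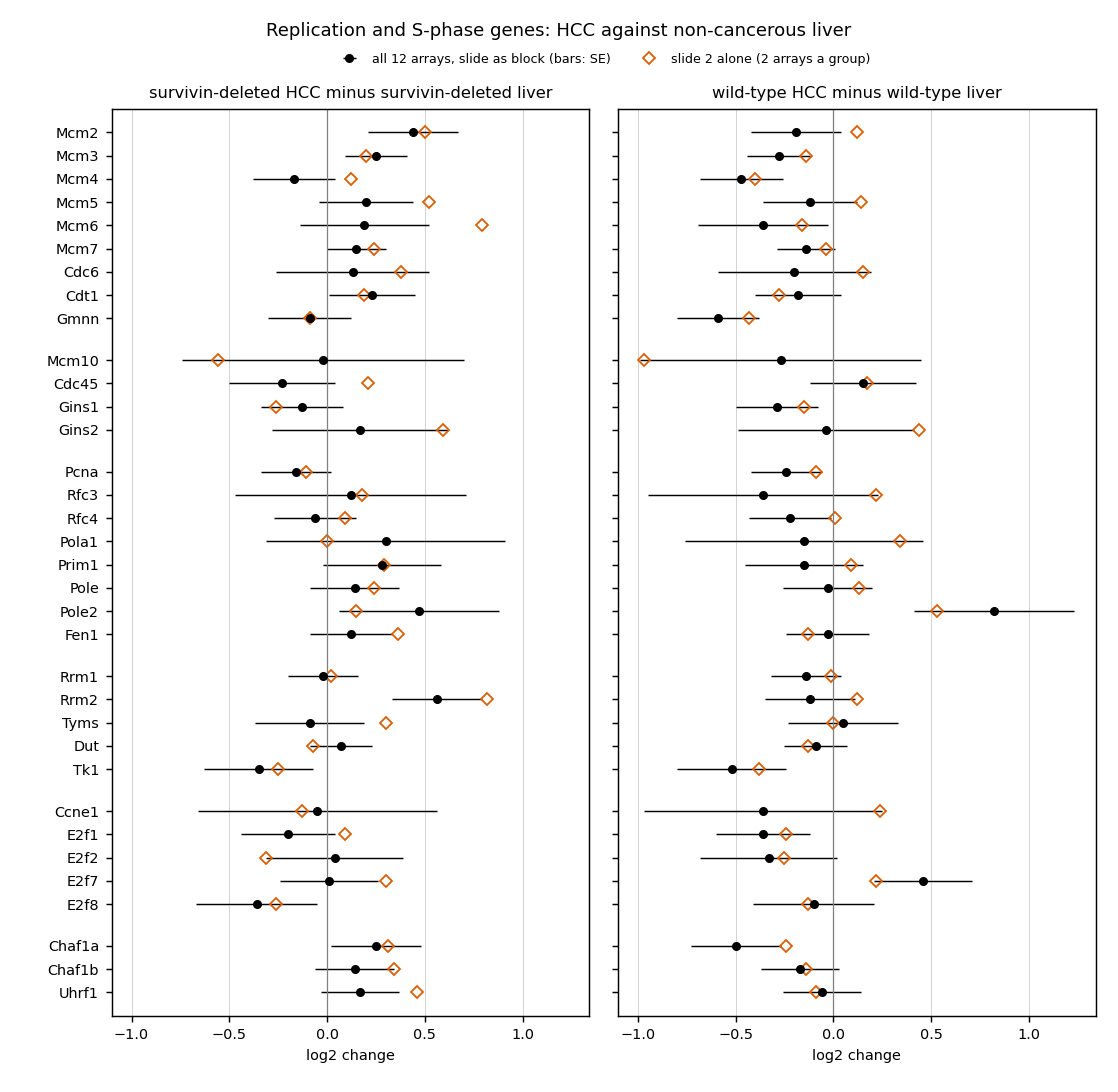
Log2 difference between HCC and liver for the 34 tested genes in survivin-deleted tissue (left) and in wild-type tissue (right), with genes grouped by role. Black points are the fit of 12 arrays with slide as a block and bars are 1 SE, and orange diamonds are slide 2 alone. Rrm2 lies at 0.56 and Mcm2 at 0.44 on the left, and Gmnn at -0.59 and Pole2 at 0.82 on the right.

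Genes of the same process outside the set were read from 4 further lists, none of whose members passed the adjusted threshold. The 47 other fork and origin genes (44 tested) were below 0 in 37 cases in survivin-deleted against wild-type liver (median -0.20) and in 31 cases in HCC (median -0.13). Pola2, the partner of Pola1, differed by -0.53 in liver (limma unadjusted p = 0.0167), Tipin, a fork protection protein, by -0.47 and Gins4 by -0.48, while Asf1a, a histone chaperone, differed by -0.49 in HCC. The 23 other nucleotide genes had medians of -0.13 in liver and -0.04 in HCC. In that list purine synthesis enzymes had the smallest p-values: Gart differed by -0.84 (SE 0.17, limma unadjusted p = 0.000615, adjusted p = 0.54) and Adsl by -0.68 (limma unadjusted p = 0.00129) in HCC, and Adsl by -0.57 in liver. Samhd1, which breaks down deoxynucleotides, differed by 0.74 in HCC (limma unadjusted p = 0.0412).

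The 28 other G1/S control genes had medians of -0.08 in liver and -0.12 in HCC, with Cdk4, a G1 kinase, at -0.39 in liver (limma unadjusted p = 0.0201). Between tissues in wild type, Cdkn2b, an inhibitor of that kinase, differed by 1.90 (limma unadjusted p = 0.0191). The 30 G2/M genes (29 tested), which include Birc5 itself, were below 0 in 25 cases in liver (median -0.66) and in 24 in HCC (median -0.39). Both medians were further below 0 than those of the replication genes, a contrast that was not tested. Cenpa, the centromere histone, differed by -0.92 in liver and -0.87 in HCC (limma unadjusted p = 0.0222 and 0.0285), and Cdc20, an activator of mitotic exit, by -0.85 in liver. Cdk1, the mitotic kinase, was on the other side in liver, at 0.46 (limma unadjusted p = 0.0298). On slide 2 alone 22 of the 29 were lower in liver and 15 in HCC at an unadjusted p under 0.05 (limma), against 6.08% and 8.85% of all genes. Birc5, the deleted gene, was among them in both tissues. In HCC against liver over all arrays, 25 of 29 G2/M genes were above 0 with deletion (median 0.32) and 20 of 29 in wild type (median 0.12). On slide 1 their mean level was -0.56 in survivin-deleted HCC and -0.27 in survivin-deleted liver, and -0.80 in wild-type HCC and -0.04 in wild-type liver, with the 2 arrays in doubt among these. On slide 2, 28 of 29 G2/M genes were above 0 in each genotype, at medians of 0.65 with deletion and 0.60 in wild type, where the replication genes had medians of 0.20 and -0.06.

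**Figure D5:**
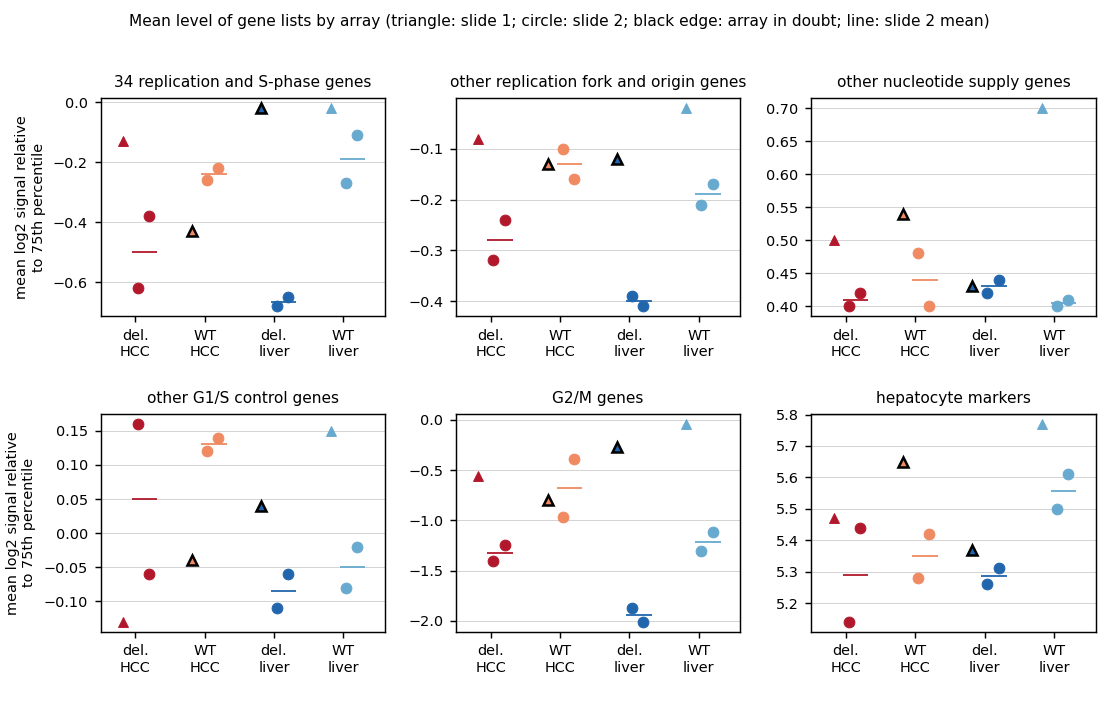
Mean log2 level, relative to the array's 75th percentile, of the 34 tested replication and S-phase genes, 4 further cell-cycle lists and the hepatocyte markers (vertical axis, scaled per panel) in the 4 groups. Triangles are slide 1 arrays, circles slide 2 arrays, black edges the 2 arrays in doubt, and lines the slide 2 mean. The replication genes stood at -0.68 and -0.65 in the slide 2 survivin-deleted livers, the lowest of the 12 arrays. The slide 2 survivin-deleted tumours followed, at -0.62 and -0.38 for replicates 2 and 3, against -0.26 and -0.22 in wild-type HCC.

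For 7 genes another probe also had enough signal, and for 3 of them a probe disagreed in direction in liver. The other Mcm3 probe differed by 0.12 between survivin-deleted and wild-type liver, where the probe used differed by -0.24. A Tk1 probe (mm9 chromosome 11, 117685654 to 117685713) differed by 0.43 in liver and 0.34 in HCC, against -0.72 and -0.55 for the probe used, while a further Tk1 probe (117683390 to 117683449) differed by -0.92 and -0.23. The other Pole probe differed by 0.25 in liver, against -0.46. The other probes of Rfc4 (-0.59), Chaf1b (-0.49) and Ccne1 (-0.65) had the direction of the probe used in liver, as did that of E2f7, at 0.19. In mm9 the probe used for Rrm2 lies on chromosome 12 at 25398824 to 25398883, that for Chaf1a on chromosome 17 at 56206969 to 56207028 and that for E2f7 on chromosome 10 at 110219255 to 110219314, with exon positions not read here.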

How the data were processed

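Transcript levels were measured on 12 single-colour Agilent arrays, 3 per group. The deposited spot intensity values are scanner output, for which the submitters' processing notes name Agilent Feature Extraction 10.7. The deposited value table holds log2 values, which matched the scanner files after each array's 75th percentile was subtracted, and was used only as an alternative. Processed intensities were put on the log2 scale, spots of a probe averaged, and each array's 75th percentile over non-control probes subtracted. Probes had to be well above background in every array of some group, and each gene was represented by its brightest probe on average, giving 26506 genes.

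Group means were fitted in limma 3.58.1 (R 4.3.3) with slide as a block and 7 residual degrees of freedom, with Benjamini-Hochberg adjustment at 0.05 over all genes in each of 5 comparisons. The fit on slide 2 alone had 4 residual degrees of freedom and that without the 2 arrays in doubt 5. The array identifiers give the slide. Replicate numbers in the titles pair the arrays through slide: deviations from the group means of same-numbered arrays correlated at 0.278 to 0.737 over 18 pairs, and at -0.09 to 0.284 within slide 2, where 4 of 12 pairs were over 0.1. With 2 arrays per group on slide 2, the deviations within a group mirror each other. Each correlation there recurs for both replicate numbers, so the 12 pairs are not independent.

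The genes of the set and the lists were chosen with earlier results of these data known. Any gene of the set may be named, and per-array values were given for the 6 of smallest unadjusted p in each comparison, for some in part of the groups only. Up to 4 genes of smallest p were named from each further cell-cycle list, and Birc5 always. Other per-array values, probes and promoters were chosen after their values were seen. The array's gene coordinates are on mm9 and the promoters on GRCm38.p6, so the 2 were not combined. Alternatives covered the block, the arrays used, normalization, background correction, the filter on dim probes, the choice of probe, the variance model and the value table.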

Additional observations from a re-analysis of the deposited data

Results flagged for a closer look

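The difference between HCC and liver in the survivin deletion difference passed an unadjusted test by limma for 2 genes of the set. For Chaf1a, a subunit of the histone chaperone of the replication fork, it was 0.76 on the log2 scale (unadjusted p = 0.0409). For Mcm3, a subunit of the replicative helicase, it was 0.53 (unadjusted p = 0.042). Neither passed adjustment over 26506 genes (limma adjusted p = 0.912 for both), where 871 genes (3.29%) had an unadjusted p under 0.05. Within slide 2 the values were 0.55 and 0.34, with unadjusted p = 0.15 and 0.128. With the replicate block, and with no block, 0 genes of the set had an unadjusted p under 0.05, against 803 and 149 of all genes. The other kept Mcm3 probe differed by 0.53 in HCC and by 0.12 in liver. The cause was not tested.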

How the results depend on the processing

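No gene of the set passed an adjusted p of 0.05 (limma) in any comparison under any of the 26 alternative fits, and the smallest adjusted p in the set was 0.0817 (Rfc3 in HCC on slide 2 alone). Among all genes, few passed in alternatives. Within slide 2, 1 gene passed in the HCC deletion comparison and 1 in the liver deletion comparison, XIST in both (log2 difference -4.25 and -4.43). Without the 2 arrays in doubt 2 genes passed in HCC, Cyp3a41b (2.54) and Dntt (-3.87). They are named here because of these values, and the causes were not tested. Leaving out 1 array at a time, 0 to 2 genes passed in the HCC comparison, 0 to 2 in the liver comparison and 0 to 1 in HCC against liver with deletion. The arrays whose removal gave calls were survivin-deleted liver replicates 1 and 2, wild-type HCC replicate 1 and wild-type liver replicate 1.

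The median log2 difference of the set over the fits that leave out 1 array was -0.32 to 0.05 for deletion in HCC, where the lowest was without wild-type HCC replicate 1. It was -0.46 to -0.23 for deletion in liver, -0.3 to -0.05 for HCC against liver in wild type, -0.02 to 0.26 with deletion, and 0.15 to 0.42 for the tissue difference. The other alternatives kept the sign of all 5 medians, quantile normalization and normexp correction included. In this balanced design the block, the variance model and the fit of only the groups compared could not alter the medians. Exchanging the 2 arrays in doubt could not alter the tissue difference, because both groups enter it with the same sign. With the replicate block in place of slide, the pairing by number left 6 genes of the set at an unadjusted p under 0.05 in the liver comparison (7 with slide), 0 in HCC and 0 for the tissue difference (2 with slide), and changed no call after adjustment. Of all 26506 genes, 2804 in liver, 1984 in HCC and 803 for the tissue difference had an unadjusted p under 0.05 with the replicate block. With no slide block 1 gene of the set was under 0.05 in liver and 0 for the tissue difference, against 803 and 149 of all genes. Values of the genes with the 6 smallest p in each comparison changed sign in 3 of 155 alternative values for HCC against liver with deletion and in 0 of 156, 155, 154 and 150 for the others. These counts do not measure stability. Many of the values could not change, such as those with another block or variance model, or without an array of a group not compared. The genes were also picked by their p in the same data. The fit of only the groups compared gives no tissue difference, and the filter on all arrays leaves out Pole2, E2f7 and Tyms.

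Precision is limited by 3 arrays per group, by 2 slides of different signal strength, and by the 2 arrays whose identity is in doubt. Wild-type liver replicate 1 had 49.0% of spots well above background, and its E2f7 and Pole2 probes were not.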
